A study of Mus musculus with 24 samples.

Results

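The comparison described here is that of calorie-restricted (CR) and ad libitum fed (AL) mouse liver at zeitgeber time 14 h (ZT14), 4 of the 24 libraries of the series. The members were chosen by diet and time point alone, which gave the 2 libraries of CR ZT14 and the 2 of AL ZT14, and all genes with enough counts were compared. The mice were of strain C57BL/6 and 5 months old. CR mice had received 30% fewer calories for 3 months, from 2 months of age, and AL mice had free access to food. The other 20 libraries are the same diets at ZT2, ZT6, ZT10, ZT18 and ZT22, 2 libraries per group, and served to estimate the spread between libraries. Both AL ZT22 libraries carry the number 2 in their labels and entered as 2 replicates. Each library holds polysome-associated RNA, that is, messenger RNA recovered together with several ribosomes, selected by its poly(A) tail and sequenced without strand information. As total RNA is not analysed here, a higher level on polysomes can reflect more transcript, more ribosome loading, or both. In whole liver, fewer cells of a type and less RNA per cell cannot be told apart. No source used here gives the feeding hours of the CR mice. Libraries of a group carry numbers, with no statement that they are separate animals, so p-values reflect spread among libraries that may be technical.

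Zeitgeber time counts from lights on, and ZT14 lies by convention early in the dark phase, when mice with free access to food usually eat. A meal raises insulin and glucose in the liver. Insulin holds the transcription factor FOXO1 out of the nucleus and switches on glycolysis and fat synthesis, and glucose activates the factor ChREBP. In fasting, glucagon, glucocorticoids and fatty acids take over, FOXO1 and PPARα drive glucose release, fat oxidation and ketone production, and amino acids are broken down for carbon. Feeding also loads the secretory pathway of the hepatocyte, whose chaperones are under the control of XBP1 and ATF6.

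The ZT14 libraries held 20.8 and 13.8 M counted reads in AL and 32.6 and 30.2 M in CR. Features that collect ribosomal RNA took 35.4% and 59.0% of the reads in AL and 28.9% and 18.8% in CR, so that 13.4 and 5.64 M reads lay elsewhere in AL and 23.2 and 24.5 M in CR. The share was lower and the depth higher in both CR libraries, and their part in the results below was not tested beyond a fit with the ribosomal RNA ratio added as a term. That fit gave 267 calls (99 higher, 168 lower), 190 of them among the 197 below, and Acot3, Asns, Inhbe, Rgs16 and Serpina1e missed the threshold in it, with adjusted p of 0.0505, 0.0513, 0.0522, 0.0542 and 0.0544. Across genes, the 2 AL libraries correlated with a Spearman's rho of 0.949 and the 2 CR libraries with 0.969. Hepatocyte markers were abundant in all 4 libraries, with summed levels of the 12 genes between 58977 and 110746 CPM (counts scaled to library size with a composition factor).

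Of 15490 genes tested, 197 differed between the diets at ZT14 (1.27%), 78 higher in CR (0.504%) and 119 lower (0.768%), at an adjusted p (Benjamini-Hochberg) of 0.05 in edgeR's quasi-likelihood fit. Each of the 197 differed by more than 2-fold, the smallest by 1.29 log2 units, and in each the 2 CR libraries lay outside the range of the 2 AL libraries. Such separation of the 4 values was itself frequent: 22.8% of all genes had both CR libraries above both AL libraries and 22.3% had both below. The median change of all genes was -0.002 log2 units. With library totals alone, without the composition factor, that median was 0.27 and 73 genes were called higher and 58 lower. Fitted on the 4 ZT14 libraries alone, 831 genes passed (5.36%). Leaving out AL library 1, AL library 2, CR library 1 or CR library 2 left 63, 55, 29 and 50 calls, of which 15, 15, 24 and 23 were higher. Of the genes named here, Acot3, Acot4, Akr1b7, Alas2, Bcl6, Bhlhe41, Cyp2a4, Dbp, Fam213b, Foxo1, Fyco1, Gmppb, Gstt3, Ifi47, Irs2, Manf, Nav2, Pklr, Psmd9, Rgs16, Rora, Sds, Slc16a7, Slc25a25, Slc25a47, Srebf1, Sult1a1, Tef, Txnip and Yod1 overlap another annotated gene, whose reads cannot be told apart without strand. An exact permutation test of 2 against 2 libraries cannot give a two-sided p under 0.333, so every call rests on the spread shared across genes and groups.

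Ranked by size among calls whose geometric mean reached 10 CPM, the 12 largest rises included Cyp2b9 (0.960 and 1.71 CPM in AL, 108 and 123 in CR), a cytochrome P450 of female liver, the glutathione enzymes Mgst3 and Gstt3, the monocarboxylate carrier Slc16a7 and Cyp3a59, which rose by 6.50 ± 1.38, 3.24 ± 0.72, 2.32 ± 0.44, 2.36 ± 0.47 and 2.28 ± 0.53 log2 units (± SE). Acot4, Cyp2a4, Cyp2a5, Cyp39a1, Got1 and Slco1a4, described below, were also among them. The 12 largest falls were 7 Mup genes, which encode urinary pheromone carriers, with Hsd3b5, Slco1a1, Selenbp2, the protease inhibitor Serpina1e and the pseudogene Serpina4-ps1. Mup18 measured 167 and 107 CPM in AL and 1.07 and 1.65 in CR and fell by 6.65 ± 1.26, and Selenbp2, Serpina1e and Serpina4-ps1 fell by 5.62 ± 1.19, 5.66 ± 1.26 and 6.00 ± 1.25. Adjusted p lay between 0.000462 (Cyp39a1) and 0.0439 (Cyp2a4) over these 24 genes.

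The restricted animals at ZT14 held an extreme position in the day for many of the 197 called genes. Among the 12 group means of diet and time point, CR ZT14 was the highest for 48 of the 197 genes and the lowest for 66, against 11.5% and 11.7% of all genes. AL ZT14 was the highest for 35 and the lowest for 20, against 5.63% and 6.55% of all genes. These ranks share their values with the comparison itself and are a description. Mup17 and Hsd3b5, among the 12 largest falls, were not extreme in this way, as CR ZT14 ranked 9 of 12 from the top in each. Both had negative values at every other hour too. Mup17 did not pass at ZT6 and ZT18, nor Hsd3b5 at ZT18 (edgeR's adjusted p = 0.119, 0.243 and 0.332). At ZT2, ZT6, ZT10, ZT18 and ZT22, Mup17 measured -7.36, -3.99, -7.93, -3.04 and -5.82 log2 units, against -6.37 at ZT14. Hsd3b5 measured -8.12, -5.97, -7.59, -2.15 and -6.95, against -5.60 at ZT14.

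**Figure D1:**
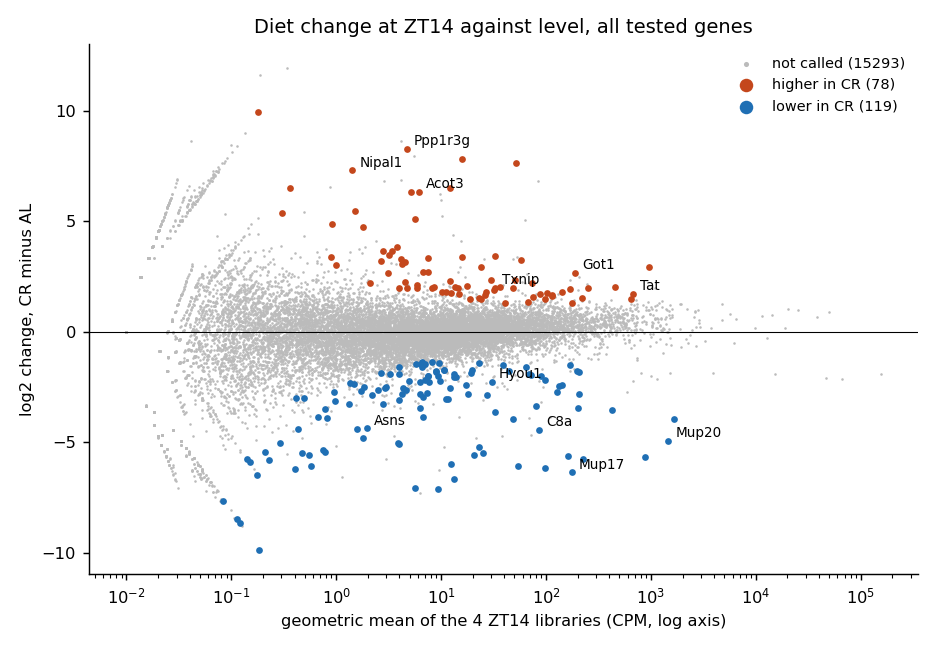
Log2 change between the diets at ZT14 (CR minus AL, vertical axis) against the geometric mean of the 4 libraries in CPM (horizontal log axis, values under 0.01 set to 0.01), 1 point per gene. The 78 genes called higher and 119 called lower are coloured, and no called gene lies within 1.29 log2 units of 0.

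All gene lists here were drawn up with earlier results of these libraries known, so counts and directions within them are not independent evidence. Of 24 genes of glucose use and glycogen, 3 rose in CR and 0 fell, against 0.504% and 0.768% of all genes. Ppp1r3g, a subunit that directs protein phosphatase 1 to glycogen and stimulates glycogen synthase, measured 0.160 and 0.456 CPM in the AL libraries and 62.1 and 106 CPM in the CR libraries, a rise of 8.28 ± 0.89 log2 units (± SE, adjusted p = 7.96e-05). The CR values lay far above both AL values, which were close to 0. Txnip, an arrestin-like protein that limits glucose uptake and binds thioredoxin, measured 16.6 and 16 CPM in AL and 66.9 and 62.3 CPM in CR and rose by 1.99 ± 0.37 (adjusted p = 0.00611). Its paralog Arrdc4 measured 7.57 and 3.54 CPM in AL and 21.2 and 18.1 CPM in CR and rose by 1.80 ± 0.40 (adjusted p = 0.0235). The median of the 24 genes was 0.09. Liver pyruvate kinase (Pklr), a ChREBP target at the end of glycolysis, measured 58.9 and 137 CPM in AL and 17.3 and 18.2 CPM in CR (-2.46 ± 0.93, adjusted p = 0.238). It did not pass the test, although both CR libraries lay below both AL libraries. Glycogen synthase Gys2 measured 0.53 ± 0.36. When 1 ZT14 library was left out, the adjusted p was at most 0.0142 for Ppp1r3g, 0.0376 to 0.0835 for Txnip and 0.0318 to 0.278 for Arrdc4.

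The upstream sequences of Txnip and Arrdc4 are shown because both genes are known targets of glucose-sensing factors and rose together. They are the 250 bases before the RefSeq start (GRCm38.p6), written 5′ to 3′ on the strand of the gene. Capitals in Txnip mark a match to the carbohydrate response element of ChREBP, searched as 2 copies of CACGNG with 5 bases of any kind between them, and a match to the FOXO motif GTAAACA. Capitals in Arrdc4 mark an E-box, CACGTG.
Txnip, chr3:96557707-96557956, plus strand: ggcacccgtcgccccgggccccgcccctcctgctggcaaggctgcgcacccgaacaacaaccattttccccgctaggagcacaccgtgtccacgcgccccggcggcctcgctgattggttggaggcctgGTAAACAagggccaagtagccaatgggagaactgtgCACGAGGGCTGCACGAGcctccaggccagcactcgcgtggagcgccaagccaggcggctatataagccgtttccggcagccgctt
Arrdc4, chr7:68749239-68749488, minus strand: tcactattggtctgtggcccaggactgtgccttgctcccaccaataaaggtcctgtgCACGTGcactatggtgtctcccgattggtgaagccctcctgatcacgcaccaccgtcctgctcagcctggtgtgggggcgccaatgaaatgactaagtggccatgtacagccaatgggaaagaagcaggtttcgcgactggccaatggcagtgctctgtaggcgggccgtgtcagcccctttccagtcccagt
The carbohydrate response element of Txnip begins 85 bases before the start and its FOXO motif 121 bases before it, and the E-box of Arrdc4 begins 193 bases before the start. Both strands of the upstream 250 bases of 32851 RefSeq promoters were searched, and 0.0457% held the carbohydrate response element, 3.17% the FOXO motif and 6.02% the E-box. Of the called genes with a promoter in the table, 60 were higher and 89 lower in CR. Among the higher ones 1 held the carbohydrate response element (Txnip), 6 the FOXO motif (Akr1b7, Btg1, Fmo2, Rdh16f2, Txnip and Yod1) and 4 the E-box (Acot4, Arrdc4, Psmd9 and Retreg1), and among the lower ones 0, 5 and 4 did. The percentages are per promoter, of which a gene can have several, while a called gene counted if any of its promoters matched. The counts and percentages are therefore not directly comparable. The motifs were chosen after the values were seen, and a match is a description of the letters.

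Foxo1, the transcription factor that insulin restrains, measured 21.3 and 28.2 CPM in AL and 81.7 and 111 CPM in CR and rose by 1.97 ± 0.34 log2 units (adjusted p = 0.0032). It was the 1 called member of 16 genes of the insulin signal and FOXO targets (median 0.34), where 1.27% of all genes were called. Igfbp1, a secreted binding protein of insulin-like growth factors that FOXO1 induces, measured 1.17 and 1.37 CPM in AL and 81.2 and 75.5 in CR. This change of 5.96 ± 1.44 did not pass (adjusted p = 0.0633), and it passed by DESeq2, by limma-trend and in the 4 ZT14 libraries alone. Irs2, the insulin receptor substrate that rises in fasting, measured 2.51 and 4.11 CPM in AL and 17.2 and 13.6 CPM in CR (2.24 ± 0.58, adjusted p = 0.0525). Irs2 likewise passed by DESeq2, by limma-trend and in the 4 ZT14 libraries alone.

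Among 18 genes of gluconeogenesis, 2 rose (0.504% of all genes did), 0 fell and the median was 0.78, and 14 had both CR libraries above both AL libraries, against 22.8% of all genes. Got1, the cytosolic aspartate aminotransferase, measured 62 and 89.2 CPM in AL and 413 and 544 CPM in CR and rose by 2.66 ± 0.45 log2 units (adjusted p = 0.00292). Ppargc1a, the coactivator PGC-1α of fasting liver, measured 1.39 and 1.60 CPM in AL and 11.2 and 13.3 CPM in CR and rose by 3.04 ± 0.58 (adjusted p = 0.00799). The rate-limiting enzyme Pck1 measured 369 and 770.2 CPM in AL and 2245 and 2257 in CR. Its change of 1.98 ± 0.57 (adjusted p = 0.0854) and that of glucose-6-phosphatase G6pc, from 26.7 and 67.2 to 162 and 145 CPM (1.71 ± 0.78, adjusted p = 0.336), missed the threshold. Fructose bisphosphatase Fbp1 and the glucose-6-phosphate transporter Slc37a4 measured 0.61 ± 0.46 and 0.80 ± 0.32. Without 1 library, adjusted p was 0.0141 to 0.0733 for Foxo1, 0.015 to 0.0733 for Got1 and 0.0425 to 0.102 for Ppargc1a.

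Amino acid breakdown had 1 called member of 36, where 1.27% of all genes were called. Tat, the tyrosine aminotransferase that glucocorticoids and glucagon induce, measured 325 and 430.0 CPM in AL and 1076 and 1387 CPM in CR and rose by 1.71 ± 0.41 log2 units (adjusted p = 0.0371, 0.144 to 0.209 without 1 library). Serine dehydratase (Sds), cystathionine γ-lyase (Cth) and the lysine enzyme Aass measured 1.27 ± 0.46, 1.09 ± 0.35 and 0.82 ± 0.41, with adjusted p of 0.199, 0.139 and 0.371. The list median was 0.39. Tat was also the 1 called gene of 17 glucocorticoid-responsive genes, whose median of 1.11 came with 13 genes separated upward, against 22.8% of all genes. Fkbp5, a cochaperone of the glucocorticoid receptor, measured 20.5 and 34.7 CPM in AL and 60.9 and 76.6 in CR (1.32 ± 0.41, adjusted p = 0.115), and Tsc22d3 and Sgk1 measured 0.74 ± 0.39 and 0.97 ± 0.50. None of the 8 urea cycle genes was called by edgeR, DESeq2 or limma-trend, 2 were higher at an unadjusted p under 0.05, and the median was 0.15.

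**Figure D2:**
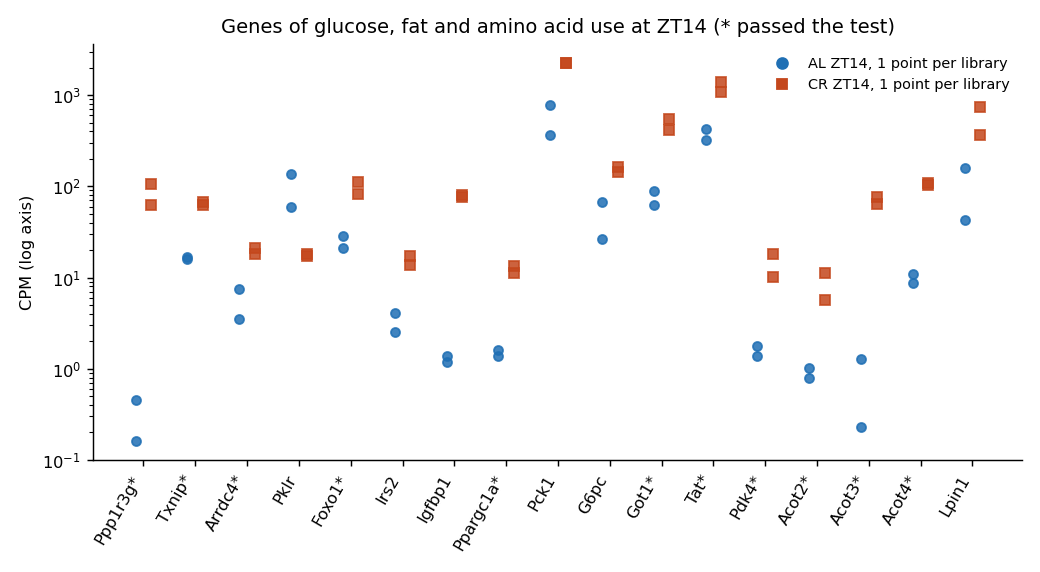
Level in CPM (log axis) of 17 genes of glucose, fat and amino acid use in each ZT14 library, circles for the 2 AL libraries and squares for the 2 CR libraries, with an asterisk on genes that passed the test. In each gene shown the CR libraries lie on 1 side of the AL libraries, below them in Pklr and above them in the other 16.

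Fat oxidation showed 4 called members of 39, all higher, against 0.504% of all genes, and a median of 0.59. Both CR libraries lay above both AL libraries in 25 of the 39, against 22.8% of all genes. Pdk4, the kinase that shuts pyruvate dehydrogenase and so spares glucose, measured 1.76 and 1.37 CPM in AL and 17.9 and 10.1 CPM in CR and rose by 3.14 ± 0.47 log2 units (adjusted p = 0.00129). The other 3 were acyl-CoA thioesterases, PPARα targets that split fatty acyl-CoA. Acot4, of peroxisomes, measured 11 and 8.78 CPM in AL and 109 and 105 CPM in CR and rose by 3.42 ± 0.53 (adjusted p = 0.00139). Peroxisomal Acot3 measured 1.28 and 0.228 CPM in AL and 76.1 and 63.9 CPM in CR and rose by 6.35 ± 1.41 (adjusted p = 0.0472), and mitochondrial Acot2 measured 0.800 and 1.03 CPM in AL and 11.1 and 5.64 CPM in CR and rose by 3.22 ± 0.73 (adjusted p = 0.0305). These genes lie on chromosome 12 and share 27.7% (Acot2), 21.3% (Acot3) and 13.4% (Acot4) of their 50-base words with other genes, and Acot3 and Acot4 overlap further annotated genes, so their split is uncertain. The PPARα targets Cyp4a14 (5.81 and 10.5 CPM in AL, 1096 and 723 in CR) and Cyp4a10 (8.96 and 13.5 in AL, 289.7 and 462 in CR) measured 6.82 ± 2.02 and 5.07 ± 1.66 without passing (adjusted p = 0.135 and 0.182). Both passed by DESeq2 and in the 4 ZT14 libraries alone, but not by limma-trend. Carnitine palmitoyltransferase Cpt1a measured 0.42 ± 0.43. The fasting hormone Fgf21 had 0.0533 and 0.342 CPM in AL and 2.54 and 0.910 in CR (3.37 ± 1.24, adjusted p = 0.202). Adjusted p was at most 0.0312 for Pdk4, 0.0115 to 0.0517 for Acot4, 0.12 to 0.299 for Acot3 and 0.0568 to 0.246 for Acot2 without 1 library.

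Fat synthesis, the programme of the fed state, held no call among 22 genes by edgeR or limma-trend, and 1 higher and 1 lower by DESeq2. At an unadjusted p under 0.05, 1 was higher and 4 lower. Its median was -0.29, and 0.01 without the composition factor. The master regulator Srebf1 measured 226 and 174 CPM in AL and 88.3 and 72.1 in CR (-1.32 ± 0.57, adjusted p = 0.292), and fatty acid synthase Fasn 327 and 241 CPM in AL and 87 and 131 CPM in CR (-1.39 ± 0.62, adjusted p = 0.32). Both CR libraries lay below both AL libraries in each. Scd1, the desaturase, overlapped between the groups, at 1535 and 576 CPM in AL and 1879 and 1417 CPM in CR. Lpin1, a phosphatidate phosphatase and coactivator of fasting liver, had 43.1 and 157 CPM in AL and 369 and 749 in CR and did not pass (2.48 ± 0.70, adjusted p = 0.0876).

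Chaperones and factors of the endoplasmic reticulum were called only in the lower direction. Of 26 genes of the unfolded protein response, 3 fell (0.768% of all genes were called lower) and 0 rose, the median was -0.77, and 17 had both CR libraries below both AL libraries, against 22.3% of all genes. Sdf2l1, a cofactor of the chaperone BiP, measured 74.2 and 27.5 CPM in AL and 6.67 and 7.63 CPM in CR and fell by 2.84 ± 0.49 log2 units (adjusted p = 0.0036). Xbp1, the factor that drives the secretory programme, measured 136 and 132 CPM in AL and 35.8 and 34.2 CPM in CR and fell by 1.94 ± 0.37 (adjusted p = 0.00832). Hyou1, a large chaperone of the reticulum, measured 50.4 and 84.9 CPM in AL and 13.1 and 15.1 CPM in CR and fell by 2.26 ± 0.51 (adjusted p = 0.0298). BiP itself (Hspa5) measured 402 and 357 CPM in AL and 165 and 165 CPM in CR, -1.20 ± 0.40 (adjusted p = 0.152). Manf (-1.70 ± 0.48, adjusted p = 0.0774) and Creld2 (-1.59 ± 0.59, adjusted p = 0.211) had both CR libraries below both AL libraries as well. Herpud1, of the degradation machinery, lay on the other side, at 164 and 187 CPM in AL and 376 and 356 in CR (1.06 ± 0.39, adjusted p = 0.201). Adjusted p without 1 library was 0.00453 to 0.122 for Sdf2l1, 0.0451 to 0.138 for Xbp1 and 0.0511 to 0.277 for Hyou1, and without the composition factor 1 of the 3 calls remained, Sdf2l1.

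**Figure D3:**
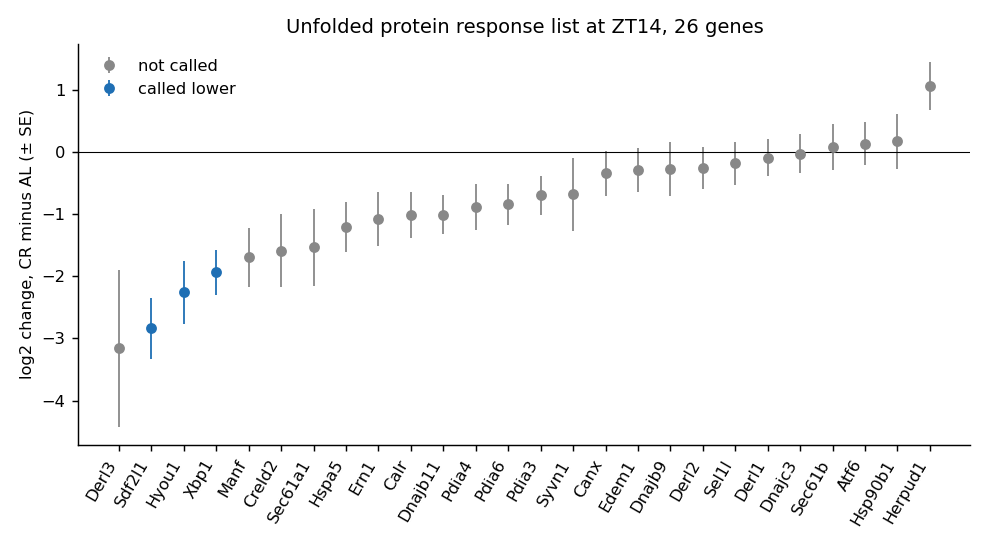
Log2 change at ZT14 (CR minus AL, vertical axis) with its standard error for each of the 26 genes of the unfolded protein response, sorted from lowest to highest. Sdf2l1, Hyou1 and Xbp1, in colour, passed the test, and Herpud1 at the right end is the highest at 1.06.

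Asparagine synthetase (Asns), a target of the transcription factor ATF4, measured 12.9 and 6.27 CPM in AL and 0.293 and 0.630 CPM in CR. Asns fell by 4.38 ± 1.06 log2 units (adjusted p = 0.0492 by edgeR), and its change ran from -5.02 to -3.76 without 1 library. It was the 1 called gene of 20 ATF4 targets, where 0.768% of all genes were called lower. The list median was 0.43, Atf4 itself measured 0.48 ± 0.46, and the pseudokinase Trib3 lay higher in CR at 0.800 and 0.684 CPM in AL and 4.19 and 4.41 CPM in CR (2.51 ± 0.72, adjusted p = 0.0826).

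Genes that differ between male and female liver made up 30 of the 197 calls. The Y-linked gene Ddx3y had 523 and 409 counts in AL and 1453 and 1344 in CR. Xist, an RNA of female cells, had 1 and 0 in AL and 0 and 2 in CR, so the libraries of both diets look male. Growth hormone pulses keep the male pattern in mice. All 18 called genes of 29 male-biased ones fell (median -4.70), against 0.768% of all genes, and all 12 called of 31 tested female-biased ones rose (median 5.22), against 0.504%. Like the other lists, these were drawn up with earlier results of these libraries known, so their direction is not independent evidence. Hsd3b5, a steroid dehydrogenase of male liver, measured 123 and 165 CPM in AL and 2.31 and 3.64 CPM in CR and fell by 5.60 ± 0.94 log2 units (adjusted p = 0.00832). The male-specific urinary protein Mup20 measured 11071 and 5616 CPM in AL and 229.9 and 317 CPM in CR and fell by 4.93 ± 1.08 (adjusted p = 0.034), and 12 of 19 tested Mup genes were called, all 19 having a negative value. Between 13.3% (Mup3) and 100% (Mup15) of the 50-base words of the called Mup genes occur in other genes, so single members are uncertain. Nudt7, a peroxisomal hydrolase of coenzyme A, measured 677 and 663 CPM in AL and 62.9 and 60.3 CPM in CR and fell by 3.44 ± 0.54 (adjusted p = 0.00139). On the female side, Nipal1, a magnesium transporter, measured 0.0533 and 0.228 CPM in AL and 16.6 and 20.3 CPM in CR and rose by 7.30 ± 0.81 (adjusted p = 7.22e-05). Adjusted p without 1 library was 0.0289 to 0.165 for Hsd3b5, 0.0811 to 0.303 for Mup20, 0.0097 to 0.0644 for Nudt7 and at most 0.0138 for Nipal1.

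In the growth hormone axis, 3 of 20 genes were called, against 1.27% of all genes. Cux2 and Trim24 of these are also counted among the called female-biased genes above. Cux2, a repressor that marks female liver, measured 0.213 and 0.570 CPM in AL and 8.13 and 10.7 in CR and rose by 4.74 ± 0.85 log2 units (adjusted p = 0.0055), and the corepressor Trim24 rose by 1.55 ± 0.37 (adjusted p = 0.0338). The leukaemia inhibitory factor receptor Lifr measured 164 and 195 CPM in AL and 45.8 and 43.8 CPM in CR and fell by 2.00 ± 0.38 (adjusted p = 0.00832). The receptor Ghr, the male-side repressor Bcl6 and Igf1 measured -0.94 ± 0.40, -0.79 ± 0.80 and 0.26 ± 0.36, none with an adjusted p under 0.282. Cux2, Trim24 and Lifr had adjusted p of 0.0264 to 0.118, 0.113 to 0.212 and 0.0316 to 0.138 without 1 library.

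Drug and bile acid metabolism overlapped with the sex-biased set. Of 42 xenobiotic genes 4 rose (Cyp2a4, Cyp2a5, Sult1a1 and Gsta4) and 1 fell (Ces2c), against 0.504% and 0.768% of all genes, with a median of 0.77. Cyp2a4, a steroid hydroxylase, measured 0.960 and 1.37 CPM in AL and 379 and 126 CPM in CR and rose by 7.80 ± 1.70 log2 units (adjusted p = 0.0439). Its neighbour Cyp2a5, the coumarin hydroxylase, measured 416 and 292 CPM in AL and 2595 and 2766 CPM in CR and rose by 2.92 ± 0.69 (adjusted p = 0.0383). The sulfotransferase Sult1a1 measured 106 and 151 CPM in AL and 403 and 618 CPM in CR and rose by 1.99 ± 0.37 (adjusted p = 0.00648). In bile acid metabolism the oxysterol hydroxylase Cyp39a1 (5.12 and 4.79 CPM in AL, 46 and 57.2 in CR) and the carrier Slco1a4 (8.27 and 9.24 CPM in AL and 56.4 and 76.7 CPM in CR) rose by 3.38 ± 0.46 and 2.93 ± 0.46. Cyp7b1, the other oxysterol hydroxylase, measured 265 and 400.3 CPM in AL and 48.8 and 51.6 CPM in CR and fell by 2.73 ± 0.62, and the carrier Slco1a1 fell by 5.50 ± 1.09. Adjusted p of these 4 was between 0.000462 and 0.0338. The rate-limiting enzyme Cyp7a1 measured 0.24 ± 0.41 and Cyp8b1, the cholic acid enzyme, -1.95 ± 0.54 (adjusted p = 0.847 and 0.0754). Without 1 library, Cyp39a1 and Slco1a4 stayed under an adjusted p of 0.0443, and the ranges were 0.0989 to 0.273 for Cyp2a4, 0.146 to 0.307 for Cyp2a5, 0.0188 to 0.102 for Sult1a1, 0.0732 to 0.287 for Cyp7b1 and 0.0779 to 0.256 for Slco1a1.

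The 120 bases before the starts of Cyp2a4 and Cyp2a5 are shown because these near-identical genes rose together. Capitals mark a match on the minus strand to the D-box TTATGNAA, the motif of the clock output factors DBP, TEF and HLF.
Cyp2a4, chr7:26307072-26307191, plus strand: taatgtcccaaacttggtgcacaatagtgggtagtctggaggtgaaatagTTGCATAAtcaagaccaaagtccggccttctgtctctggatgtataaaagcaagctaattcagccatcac
Cyp2a5, chr7:26835219-26835338, plus strand: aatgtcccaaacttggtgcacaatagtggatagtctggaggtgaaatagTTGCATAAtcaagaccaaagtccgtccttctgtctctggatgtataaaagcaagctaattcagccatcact
Aligned end to end, 117 of 121 positions were identical (96.7%), and the motif begins 70 and 71 bases before the start. It occurs in 3.07% of the upstream windows of all promoters, in 5 of the 60 called higher and in 11 of the 89 called lower, 8 of those 11 being Mup genes. A called gene counted if any of its promoters matched, so these counts are not directly comparable with the share per promoter. The transcripts share 38.8% (Cyp2a4) and 37% (Cyp2a5) of their 50-base words with other genes, so reads may be divided between them. The factors themselves measured -0.82 ± 0.78 (Dbp), 0.55 ± 0.43 (Tef) and 0.12 ± 0.30 (Hlf).

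The circadian clock held no call at ZT14. Of 19 clock and output genes, 0 passed by edgeR or limma-trend, 1 higher and 1 lower passed by DESeq2, and 3 higher and 1 lower had an unadjusted p under 0.05. Per1, which glucocorticoids also induce, measured 4.59 and 11.7 CPM in AL and 19 and 24.4 in CR (1.43 ± 0.67, adjusted p = 0.343). Cry1 and Rora measured 0.83 ± 0.43 and 1.11 ± 0.34, and Clock and Per2 -0.48 ± 0.33 and -0.61 ± 0.50. Bhlhe41 had 1.33 and 0.912 CPM in AL and 0 and 0.0700 in CR, which is close to the detection limit. Standard errors ran from 0.33 (Clock) to 1.47 (Bhlhe41) among these 6 genes.

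Of 37 interferon-stimulated genes 1 fell (0.768% of all genes did), the GTPase Ifi47, from 10.9 and 13 CPM in AL to 0.845 and 2.56 CPM in CR (-2.81 ± 0.47, adjusted p = 0.00264, 0.00496 to 0.113 without 1 library). The median was -0.80, and 22 of the 37 had both CR libraries below both AL libraries, against 22.3% of all genes. Summed Kupffer cell markers were 480 and 361 CPM in AL and 248 and 328 CPM in CR, and those of T, B and NK cells 45.7 and 17.3 against 16.7 and 13.6 CPM. Among the 17 tested lymphocyte markers, Cd4 was the 1 called gene. It fell from 1.81 and 1.71 to 0.0325 and 0.0700 CPM (-5.02 ± 1.13, adjusted p = 0.0266 by edgeR). Its CR values rest on 1 and 2 reads, and its change ran from -5.61 to -4.58 without 1 library. Of the 17 markers, 7 had a positive and 10 a negative change. Both CR libraries lay above both AL libraries in 2 and below in 5, against 22.8% and 22.3% of all genes. Endothelial markers summed to 287 and 203 CPM in AL and 276 and 375 CPM in CR. Like the Kupffer and lymphocyte sums, that of stellate cell and fibroblast markers separated by diet, but upward, at 253 and 326 CPM in AL and 432 and 662 CPM in CR. The last lay above the other 20 libraries, which reached 647 CPM. This was not particular to stellate cell and fibroblast markers. In the same library, CR library 2, the hepatocyte and endothelial sums of 110746 and 375 CPM also exceeded the other 20, which reached 88157 and 367 CPM. The 20 markers themselves were split, 11 with a positive and 9 with a negative change, a median of 0.14 and 0 called. Of them, 4 had both CR libraries above both AL libraries and 3 below, against 22.8% and 22.3% of all genes. Hepatocytes express interferon-stimulated genes too, and the part of immune cells in these values was not tested. The acute phase protein Saa1 measured 102 and 812 CPM in AL and 16.3 and 19.6 CPM in CR, with both CR libraries below both AL libraries and a wide gap between the 2 AL values (-4.67 ± 2.09, adjusted p = 0.341). The erythroid enzyme Alas2 fell, from 37.3 and 18.4 to 5.33 and 8.30 CPM (-2.04 ± 0.50, adjusted p = 0.0403), while summed erythroid markers were 2535 and 381 CPM in AL and 1426 and 3336 CPM in CR and overlapped.

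Respiratory chain genes lay higher in CR by small amounts. Of the 74 nuclear-encoded respiratory chain genes, 0 were called by edgeR or limma-trend and 3 higher by DESeq2, yet 58 had both CR libraries above both AL libraries and 29 were higher at an unadjusted p under 0.05, against 22.8% and 6.55% of all genes. Their median was 0.72. Atp5g3, a subunit of the ATP synthase rotor, measured 1031 and 979 CPM in AL and 2429.6 and 2223 in CR (1.21 ± 0.39, adjusted p = 0.133). AL library 2, which held the highest ribosomal RNA share, had the lowest value of the 4 in 63 of the 74 genes, Ndufa4 among them with 1101 and 637 CPM in AL and 1983 and 1828 in CR, and the part of that library was not tested. Of the 79 cytosolic ribosomal protein genes 0 were called by edgeR, DESeq2 or limma-trend, 2 were higher at an unadjusted p under 0.05, and the median was 0.26. The 42 ribosome biogenesis genes, which mTOR signalling and MYC promote, also gave 0 calls by the 3 tools, 6 lower at an unadjusted p under 0.05 and a median of -0.34, or 0.02 without the composition factor. Rrn3, the initiation factor of RNA polymerase I, measured 7.36 and 10.0 CPM in AL and 3.35 and 4.34 in CR (-1.17 ± 0.44, adjusted p = 0.211).

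**Figure D4:**
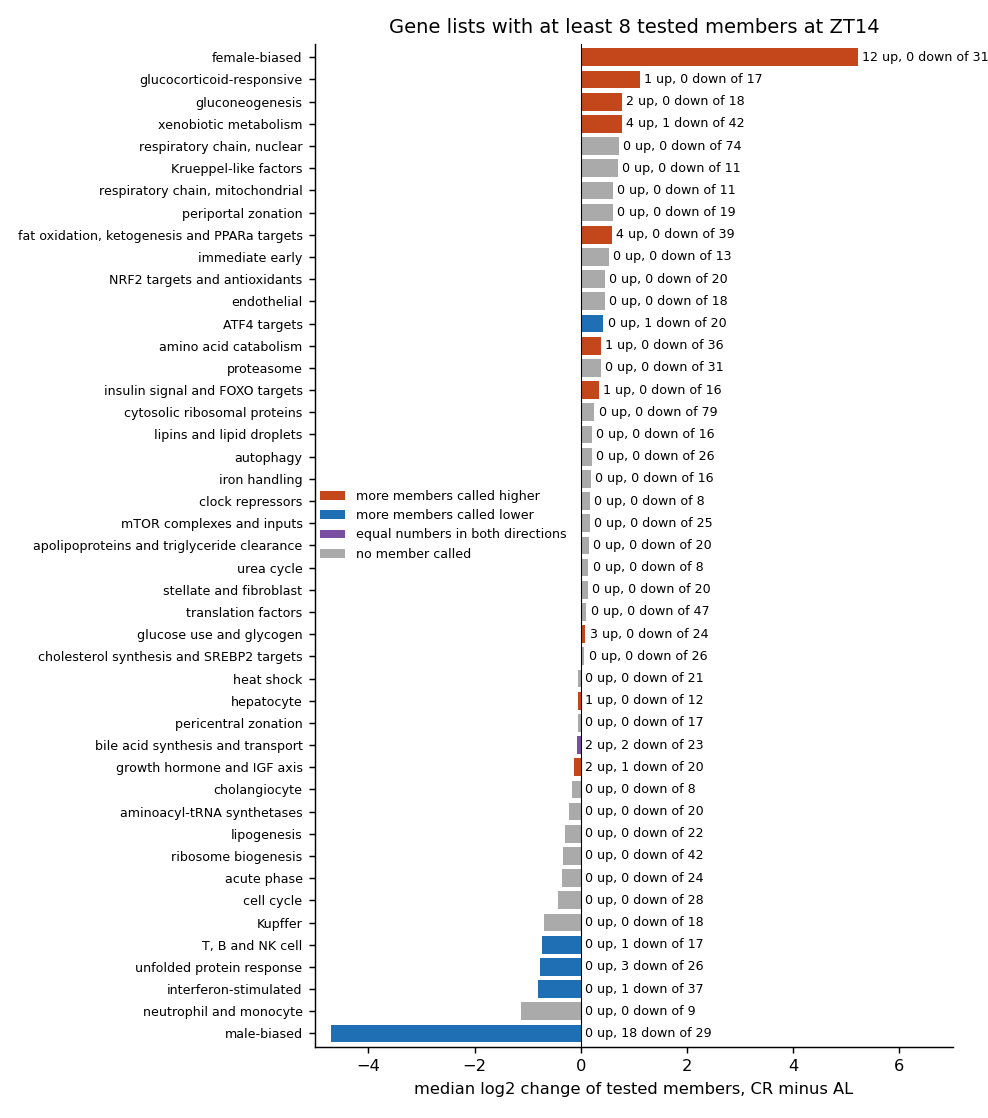
Median log2 change at ZT14 (CR minus AL, horizontal axis) of each gene list with at least 8 tested members, with the numbers called higher and lower. The male-biased list at -4.70 and the female-biased list at 5.22 lie far outside the others, which run from -1.12 to 1.11.

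Whether the diet difference at ZT14 departed from that at the other hours was asked with an interaction test. Against the mean of the other 5 time points, 1 of 15490 genes passed (0.00646%), Insc, an adaptor of spindle orientation (chromosome 7, 114743694 to 114850383, plus strand, GRCm38). It measured 10.5 and 10.6 CPM in AL ZT14 and 0.163 and 0.595 CPM in CR ZT14, a fall of 4.80 ± 0.61 log2 units (adjusted p = 0.000299), and its diet difference was lower than at the other hours by 4.0 ± 0.63 (adjusted p = 0.0282). Group means elsewhere ran from 1.83 CPM (CR ZT10) to 10.8 CPM (AL ZT2). Leaving out a ZT14 library raised the adjusted p of this interaction to between 0.0705 and 0.877. At an unadjusted p under 0.05 there were 1376 genes, and DESeq2 called 36 and limma-trend 4. Against ZT10 alone, 0% passed, the smallest adjusted p was 0.352, 1297 genes had an unadjusted p under 0.05, and DESeq2 called 33 and limma-trend 0.

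The 10 genes of smallest p against the other hours, with at least 10 CPM, did not pass after adjustment and are given as values. Txnip exceeded its own diet difference at the other hours by 1.91 ± 0.40, Foxo1 by 1.54 ± 0.36, the mitochondrial ATP-magnesium carrier Slc25a25 by 2.18 ± 0.53, Htatip2 by 1.51 ± 0.37, Slc17a4, a phosphate and urate carrier, by 1.71 ± 0.43, and the mitochondrial import factor Grpel2 by 1.68 ± 0.37. On the lower side were Nav2 (-2.69 ± 0.67), Svil (-2.28 ± 0.59), Cmah, the enzyme that makes N-glycolylneuraminic acid (-1.68 ± 0.43), and Nat8f2 (-1.32 ± 0.33). Of these, Txnip, Foxo1, Htatip2, Slc17a4, Grpel2, Svil, Cmah and Nat8f2 passed in the ZT14 comparison itself. The 197 called genes had an unadjusted interaction p under 0.05 in 104 cases against the other hours and in 73 against ZT10, but they share the ZT14 libraries with that test. Against ZT10, the 10 genes of smallest p with at least 10 CPM as their geometric mean over the 24 libraries, none of which passed, were Htatip2 (2.24 ± 0.47), Plekhb1 (2.23 ± 0.49), Fam213b (1.90 ± 0.44), Gch1, which makes tetrahydrobiopterin (1.70 ± 0.40), Chchd7 (1.87 ± 0.45), Kank1 (-2.61 ± 0.61), Fam214a (-1.87 ± 0.43), Svil (-3.18 ± 0.75), Nav2 (-3.55 ± 0.84) and Fyco1 (-2.53 ± 0.61).

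Group means over the day were as follows. Ppp1r3g averaged 84.1 CPM in CR at ZT14, 15.2 CPM in CR at ZT10 and at most 2.93 CPM in every other group, and AL ZT22 held no count. Txnip averaged 64.6 CPM in CR at ZT14, 40.2 at ZT10 and 13.8 at ZT18, against 14.4 to 25.8 CPM in the AL groups. Foxo1 peaked in the same group, at 96.4 CPM, with 24.7 to 38.7 CPM in AL. Igfbp1 stood at 78.3 CPM in CR ZT14 and had dropped to 2.20 CPM at CR ZT18. Tat averaged 1231 CPM in CR ZT14 and 606 CPM in CR ZT10. Asns was highest in AL ZT14, at 9.56 CPM, and lowest in CR ZT14, at 0.461 CPM. Each mean is of 2 libraries, and differences between neighbouring hours were not tested.

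**Figure D5:**
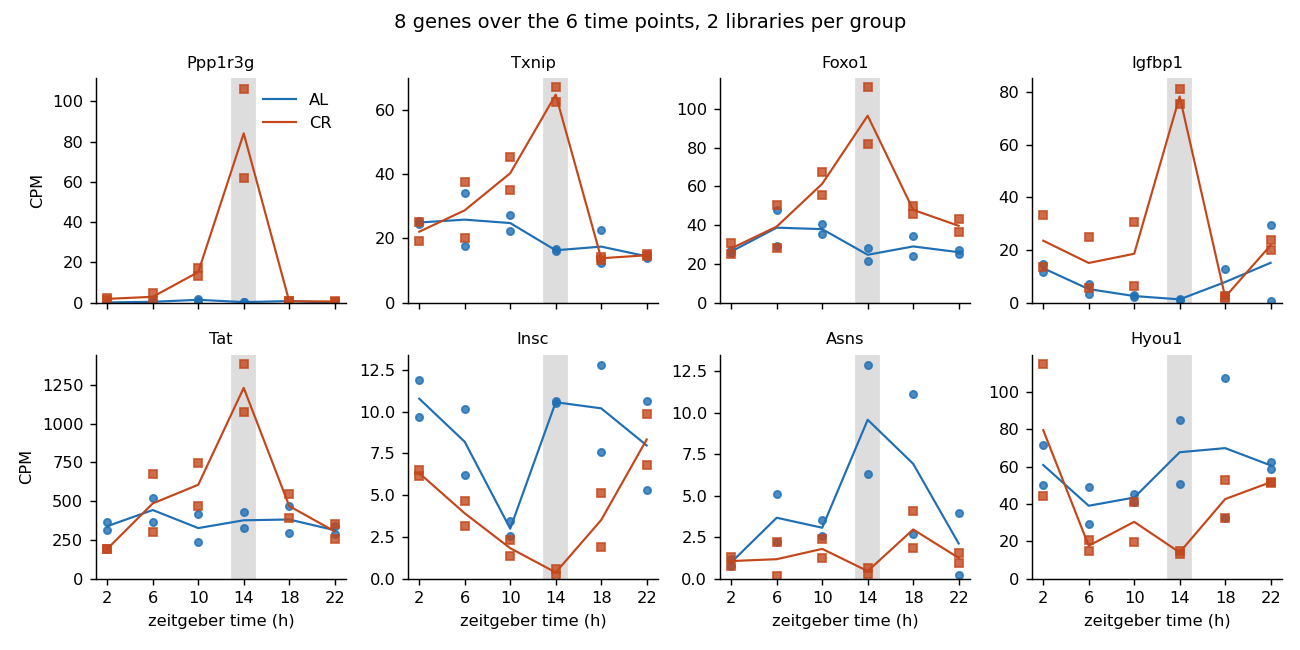
Level in CPM (vertical axis) of 8 genes against zeitgeber time in hours, with 1 point per library, lines through the means of the 2 libraries of a group and ZT14 shaded. Ppp1r3g, Txnip, Foxo1, Igfbp1 and Tat have their highest group mean in CR at ZT14, and Insc, Asns and Hyou1 their lowest there.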

How the data were processed

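Polysome-associated poly(A) RNA of mouse liver was sequenced in 24 libraries, 2 for each of 2 diets at 6 time points. The deposited values are raw read counts per Ensembl gene, made by the authors with HTSeq on GRCm38.p5 after FastQC, with DESeq2 also listed, per the submitters' processing notes. The aligner and the tool versions are not given in sources used here.

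Genes were kept by edgeR's filterByExpr over the 12 groups (15490 of 52636), scaled with TMM composition factors and tested with edgeR 4.0.16 (R 4.3.3) by the robust quasi-likelihood fit on all 24 libraries, with the CR ZT14 minus AL ZT14 contrast and its differences from the mean of the other 5 time points and from ZT10. The call threshold was a Benjamini-Hochberg adjusted p of 0.05. CPM values use the TMM-scaled library sizes, and SE is the log2 change divided by the square root of F. The 4 ZT14 libraries held between 13.8 and 32.6 M counts. Both their small number and their depth limit precision, and the parts of the 2 were not compared. Scripts were tested on simulated data, with changes of 1 and 2 log2 units given to 100 genes each. There edgeR called 2 and 33 of them in the ZT14 comparison. It called 2 and 24 against the other time points and 0 and 4 against ZT10. A gene without a call may therefore still differ by such amounts.

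Named genes were, among calls whose geometric mean reached 10 CPM, the 12 of largest rise and of largest fall, up to 6 calls per list, preset key members, and the 10 of smallest p in each interaction test. A few genes that this rule names are not reported here. Members and lists were chosen with earlier results of these data known. Alternatives were DESeq2 1.42.0, limma-trend (limma 3.58.1), other scalings and filters, a replicate block, left-out libraries, the 4 ZT14 libraries alone, a fold threshold, and 2 added after seeing the data: a fit without 2 AL libraries and one with a covariate for the ribosomal RNA ratio. Promoters came from RefSeq (GRCm38.p6). Shared 50-base words were counted between annotated transcripts.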

Additional observations from a re-analysis of the deposited data

Results flagged for a closer look

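The diet difference of Insc at ZT14 was lower than the mean diet difference of the other 5 time points (-4.0 ± 0.63 log2 units, adjusted p = 0.0282, edgeR's quasi-likelihood interaction test), and this tested difference between time points is what singled it out. Both CR libraries lay below both AL libraries at ZT14. The call was lost when any 1 of the 4 ZT14 libraries was left out and without the composition factor (adjusted p = 0.232).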

How the results depend on the processing

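The 197 calls at ZT14 became 619 with DESeq2, 318 with limma-trend, 131 without the composition factor (73 higher, 58 lower), 604 without the low-count filter, 831 in the 4 ZT14 libraries alone and 44 against a fold of 2 (glmTreat). Leaving out 1 ZT14 library gave 29 to 63, and leaving out an AL ZT22 and an AL ZT10 library 194, of which 164 were among the 197. That fit lost Alas2, Alg2, Cyp2a4, Cyp2b9, Mup20, Serpina1e and Svil of the named calls. The test against the other time points gave 36 with DESeq2, 4 with limma-trend, 126 without the filter, 0 without the composition factor, and 0 to 0 leaving out 1 ZT14 library. Against ZT10, DESeq2 gave 33 and no filter 185, and leaving out 1 library gave 0 to 155, the 155 without CR ZT10 library 1. Without the composition factor 19 of the named calls were lost in edgeR, Lifr (adjusted p = 0.115) and Cyp7b1 (adjusted p = 0.153) among them. Of the 53 named genes not called, 27 passed in the 4 ZT14 libraries alone. Of the named genes, 0 called ones changed sign under any alternative. Leaving out 1 ZT14 library, Dbp ran from -1.33 to 0.034 and Hlf from -0.10 to 0.37, so neither kept its sign. The causes were not tested. With the replicate number as a block, 189 genes were called at ZT14, 1 against the other time points and 0 against ZT10. Of the 189, 154 were among the 197, and 13 named calls were lost, Cyp2a4 (edgeR's adjusted p = 0.137) and Tat (0.073) among them. Correlations of same-numbered libraries' deviations ran from -0.053 to 0.202 over ZT2 to ZT18. Each rests on 1 difference per diet, so they cannot decide whether the numbers pair the libraries. Depth outside ribosomal RNA was lowest in AL library 2, at 5.64 M reads, which limits low genes most.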

Other observations

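The following called genes were not described above, and they were chosen after their values were seen. Of the terminal complement complex, which forms pores in microbial membranes, C6, C8a, C8b and C9 were called lower, and Hc (complement C5), C7 and C8g did not pass. C8a measured 346 and 466 CPM in AL and 16 and 21 CPM in CR and fell by 4.45 ± 0.84 log2 units (adjusted p = 0.0135 by edgeR's quasi-likelihood test), C8b measured 283 and 239 CPM in AL and 20.2 and 29.9 CPM in CR and fell by 3.38 ± 0.52 (adjusted p = 0.00139), and C6 and C9 fell by 3.97 ± 0.76 and 2.82 ± 0.42. C6 and C9 are also members of the male-biased list. Coagulation factor F11 fell by 1.75 ± 0.35, and the constitutive serum amyloid Saa4 measured 313 and 422 CPM in AL and 102 and 114 CPM in CR and fell by 1.77 ± 0.36. Single genes of the secretory pathway were Gmppb, which makes GDP-mannose and fell by 2.80 ± 0.56, the mannosyltransferase Alg2, which fell by 1.59 ± 0.39, and Mlec, a lectin of the endoplasmic reticulum, which fell by 1.52 ± 0.34. Without the composition factor, F11, Saa4, Gmppb, Alg2 and Mlec did not pass (edgeR's adjusted p = 0.234, 0.323, 0.0525, 0.369 and 0.368). C6, C8a, C8b and C9 passed there, with adjusted p of at most 0.0342.

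Among single genes, the leptin receptor Lepr measured 0.960 and 1.82 CPM in AL and 14.3 and 11.6 CPM in CR and rose by 3.27 ± 0.75 (adjusted p = 0.033). Slc25a47, a mitochondrial carrier of hepatocytes, measured 247 and 210.3 CPM in AL and 869 and 975 CPM in CR and rose by 2.01 ± 0.46 (adjusted p = 0.0305). Rgs16, a regulator of G protein signalling, measured 1.92 and 0.342 CPM in AL and 26.7 and 59.8 CPM in CR and rose by 5.10 ± 1.11 (adjusted p = 0.0383). Inhbe, the hepatokine inhibin βE, measured 11.2 and 34.2 CPM in AL and 5.53 and 4.10 CPM in CR and fell by 2.23 ± 0.56 (adjusted p = 0.0474). Without 1 ZT14 library, adjusted p was 0.0465 to 0.194 for C8a, 0.00878 to 0.0823 for C8b, 0.0583 to 0.2 for C6, at most 0.0443 for C9, 0.0286 to 0.172 for F11, 0.0332 to 0.19 for Saa4, 0.027 to 0.214 for Gmppb, 0.0961 to 0.296 for Alg2, 0.0599 to 0.248 for Mlec, 0.1 to 0.218 for Lepr, 0.142 to 0.25 for Slc25a47, 0.109 to 0.271 for Rgs16 and 0.0275 to 0.543 for Inhbe.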
